A study of Mus musculus with 2 samples.

Results

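The cells described here are 76 cells of the embryonic mouse medial ganglionic eminence (MGE) that carried RNA of the homeobox genes Hmx2 and Hmx3. They were chosen by their values, with Hmx2 and Hmx3 summing to at least 2 and Hes5, a Notch effector of dividing progenitors, under 3. They made up 76 of 4001 cells, or 1.90% (exact 95% binomial interval 1.50% to 2.37%, which covers the counting of cells only). The tissue was dissected from CD-1 mouse embryos at stage E11.5, dissociated, and run as 1 pool by MULTI-seq, which tags each cell suspension with a sample barcode before pooling, on 10x Chromium droplets. The pool was marked with the enhancers hs192 and hs799. Of its 6 sample barcodes, 4 were of GFP-gated cells and 2 of ungated cells. A map from cells to sample barcodes was not used here, so the 76 cells were not divided by enhancer or by gate, and the gate can set the share of any class.

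Hmx2 and Hmx3 encode closely related NK-type homeodomain transcription factors that lie side by side in the genome. They are known from the inner ear, where they are needed for the vestibular system, and from the developing hypothalamus, where both together are needed for neurons that make growth hormone-releasing hormone. The MGE makes GABAergic cortical interneurons and neurons of the basal forebrain and pallidum, and the homeodomain factor Nkx2-1 sets its identity. Nkx2-1 is also a factor of the ventral hypothalamus, which adjoins the MGE at this stage.

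On the mouse build GRCm38 the 2 genes lie on chromosome 7 on the plus strand, Hmx3 at chr7:131542867-131544925 and Hmx2 at chr7:131548773-131558014, with 3847 bases between them. The next gene downstream on the same strand is Bub3, at chr7:131560222-131571895, which starts 2207 bases after the annotated end of Hmx2. Bub3 encodes a protein of the mitotic spindle checkpoint and is taken up below because its level was high in the class. The sequences upstream of the 3 gene starts are shown because the 3 genes were high in the same cells. They come from RefSeq windows on GRCm38.p6 (250 bases before a RefSeq start), printed only as far as the GENCODE gene start, plus strand, 5′ to 3′, and cover chr7:131542713-131542866 for Hmx3, chr7:131548507-131548756 for Hmx2 and chr7:131560120-131560221 for Bub3. Capitals mark a TATAAA motif.
Hmx3: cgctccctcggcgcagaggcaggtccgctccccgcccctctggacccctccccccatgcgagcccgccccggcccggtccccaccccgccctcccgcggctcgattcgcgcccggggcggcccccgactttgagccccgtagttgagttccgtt
Hmx2: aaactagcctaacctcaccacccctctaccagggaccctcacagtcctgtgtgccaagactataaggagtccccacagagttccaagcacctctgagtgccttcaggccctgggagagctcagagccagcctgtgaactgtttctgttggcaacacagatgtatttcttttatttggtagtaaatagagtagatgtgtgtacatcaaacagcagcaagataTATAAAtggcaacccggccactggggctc
Bub3: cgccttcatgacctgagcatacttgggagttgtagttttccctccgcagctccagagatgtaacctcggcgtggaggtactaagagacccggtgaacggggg
The Hmx3 stretch was the richest in G and C, at 77.3%, against 49.6% for Hmx2 and 56.9% for Bub3, and the median over 32851 RefSeq windows of 250 bases was 52.4%. Over the windows of 250 bases and both strands, the motifs CAAGTG and TAATTA, which homeodomain proteins of the NK and other classes can bind, had 0 matches in any window of the 3 genes, while 11.61% and 4.84% of all windows held them. TATAAA stood once, 29 to 24 bases before this Hmx2 start, and 12.37% of all windows held it. CCAAT stood in the second RefSeq window of Hmx2 and in both of Bub3, and 33.85% of all windows held it. The last 2 motifs were chosen after the sequences had been read, and a match describes the letters only.

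Because the rule selected the cells by Hmx2, Hmx3 and Hes5, the values of these 3 genes are a description. Hmx2 ranged from 0 to 19 per cell (median 5) and Hmx3 from 0 to 13 (median 4). Both genes had a value in 67 of the 76 cells, Hmx2 alone in 4 and Hmx3 alone in 5. The sum of the 2 genes reached from 2 to 32 with a median of 8.5, and 33 cells stood at 10 or more. At the edge of the rule, 6 members had a sum of 2, while 38 cells of the pool had a sum of 1, of which 26 had Hes5 under 3. A further 3 cells reached sums of 6, 5 and 11 but were left out by their Hes5 values of 14, 3 and 7. Within the class Hes5 was 0 in 54 cells, 1 in 18 and 2 in 4. The class held 436 of the 466 summed Hmx2 values of the pool (93.6%) and 373 of the 403 summed Hmx3 values (92.6%).

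**Figure D1:**
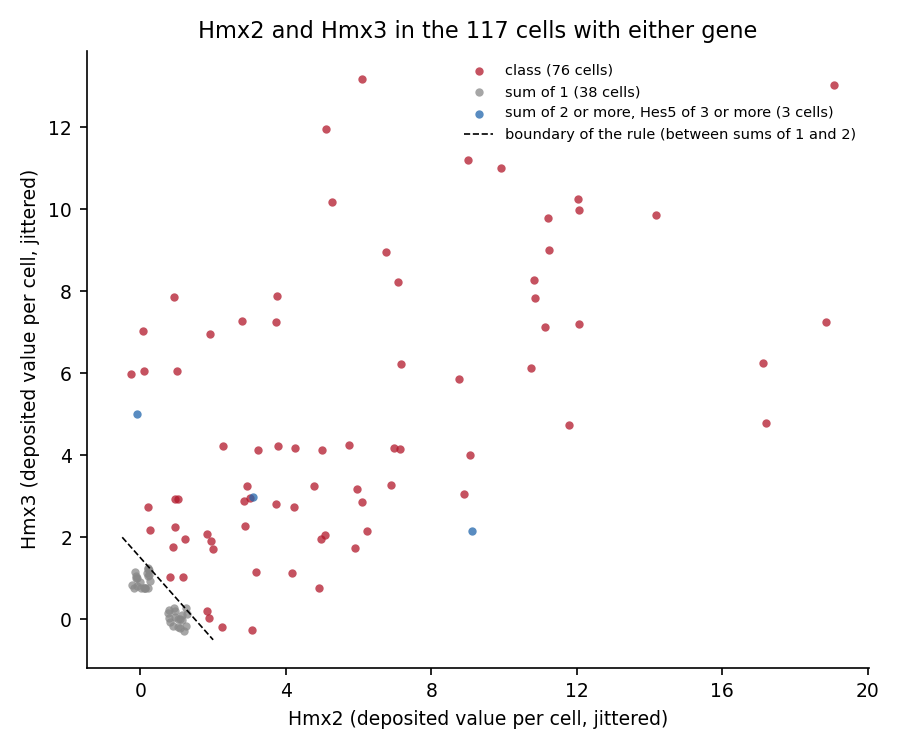
Hmx2 (x axis) and Hmx3 (y axis) in the 117 cells of the pool with a value of either gene, as deposited values per cell with a small random shift so that points do not hide each other. Red points are the 76 cells of the class, grey points the 38 cells with a sum of 1, blue points the 3 cells with a sum of at least 2 and Hes5 of 3 or more, and the dashed line is the boundary of the rule. Most red points lie away from both axes, since 67 of 76 cells had both genes.

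The values are whole numbers that had been brought to a common depth before deposit, so they are not UMI counts and the sequencing depth of a cell is unknown. Cell totals lay between 10748 and 13772 in the class (median 12711) and between 10475 and 14196 in all cells (median 12506). Below, the level of a gene in a group is its summed value per 10000 summed values, given with the SD over cells, and a ratio is the ratio of 2 levels. The comparison group, called other neurons, was 2397 cells with no Hmx2 or Hmx3 value, Hes5 under 3 and Tubb3, a neuronal tubulin, of at least 15. Within it, 1918 cells had Lhx6 and Lhx8 summing to at least 3 (Lhx6/Lhx8 neurons), 107 had Isl1 and Ebf1 of at least 3 each (Isl1/Ebf1 neurons) and 22 had Slc17a6 of at least 2 (Slc17a6 neurons). These groups overlap where a cell meets 2 definitions. Progenitors were 1214 cells with Hes5 of 3 or more and no Hmx2 or Hmx3 value. The pool is 1 library and cells are not replicates, so the spread between animals is unknown and no test was made. A gene was counted as higher or lower where the 2 levels differed at least 2-fold and the gene had at least 30 summed values over both groups. Of 13593 such genes, 874 (6.43%) were at least 2-fold higher in the class and 1593 (11.7%) at least 2-fold lower, including 681 genes that were listed at 0 in the class. Many of these genes are sparse: among the 4602 genes with at least 1000 summed values, 1.11% were higher and 2.50% lower.

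The class was neuronal. All 18 genes of a pan-neuronal list lay within 2-fold of the other neurons, with a median log2 ratio of 0.02 against 0.03 over all genes compared. Of the 18, 17 had at least 1000 summed values, and of all such genes only 1.11% were higher and 2.50% lower. The count is thus near that of all genes, and Tubb3 on the list also defined the other neurons. Summed over the list, the level was 117 in the class, 116 in other neurons and 13.3 in progenitors. Tubb3 reached 15 in 71 of 76 cells (93.4%), and its level was 27.5 ± 11.4 (SD over 76 cells) against 31.5 ± 11.4 in other neurons and 3.80 in progenitors. Stmn2, a microtubule regulator of growing neurons, was at 18.9 ± 12.2 against 21.6 ± 13.2. Gap43 and Ina, a growth cone protein and a neuronal intermediate filament, were at 6.97 and 10.7 against 4.06 and 7.02. Genes of G2 and M phase stood on the other side: 16 of 16 compared were at least 2-fold lower than in other neurons, where the background is 11.7%. The median log2 ratio of the list was -2.41, and it was -0.80 when cells with an Hmx2 and Hmx3 sum of 1 were taken into the class. Top2a, a topoisomerase of dividing cells, had a value in 9.21% of the class, 16.3% of other neurons and 81.0% of progenitors. In Isl1/Ebf1 and Slc17a6 neurons the share was 9.35% and 9.09%, and the level 0.07 and 0.11 beside 0.08 in the class. Low Top2a was therefore not particular to the class. On the list of ventricular zone and Notch genes 1 of 15 was higher and 2 lower, close to the 6.43% and 11.7% of all genes, with a median log2 ratio of -0.31. Sox2 was at 3.84 ± 3.69 in the class, 2.78 ± 3.54 in other neurons and 6.26 in progenitors.

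Of the 4 markers given for these cells, Hmx2 and Hmx3 were used by the rule and the other 2 differed in reach. Nkx2-1 had a value in 56 of 76 cells (73.7%, exact 95% interval 62.3% to 83.1%) and its level of 2.91 ± 2.94 was close to the 2.82 ± 2.84 of other neurons. Lhx5, a LIM homeodomain factor of hypothalamic and Cajal-Retzius neurons, had a value in 26 cells (34.2%, 23.7% to 46.0%) at a level of 0.89 ± 1.68, against 1.84% of other neurons (1.34% to 2.46%) at 0.03 ± 0.28. Lhx5 therefore marked a minority of the class. Summed levels of markers of other cell types differed by type. Genes of endothelial cells summed to a level of 0 over the 2 of 8 with a row in the table, microglia to 0.01 over 1 of 8 and mural and mesenchymal cells to 0.15 over 4 of 10 (0.043 in other neurons, with Col1a2 higher in the class), while erythroid genes summed to 2.12 over 8 of 8, beside 2.05 in other neurons. The 6 of 12 cranial ganglion and otic genes with a row summed to 3.49 against 1.67 in other neurons, of which Isl1 alone gave 3.44 in the class. Markers of Cajal-Retzius and eminentia thalami cells, 9 of 10 with a row, summed to 2.0 against 0.34, with Lhx1, Lhx5 and Nhlh2 higher and Calb2, Ebf3 and Tbr1 lower of 7 compared. Markers of the diencephalon, 8 of 11 with a row, summed to 1.26 against 1.91. The part of such cells in the results below was not tested.

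Among 17 compared transcription factors of the hypothalamus, 9 were at least 2-fold higher in the class than in other neurons and 1 was lower, against a background of 6.43% and 11.7%, and the median log2 ratio was 1.17. These counts rest on sparse genes: of the 5 with at least 1000 summed values 0 were higher and 1 was lower, with a median log2 ratio of 0.02. The list had been chosen with earlier results of these data known. Uncx, a paired-type homeodomain factor, stood at 0.84 ± 1.82 against 0.04 ± 0.42 (log2 ratio 4.28), and Lhx5 at a log2 ratio of 4.77. Lhx9, a LIM factor of diencephalic neurons, was at 0.31 ± 0.94 against 0.02 ± 0.26, and Nhlh2, a basic helix-loop-helix factor of hypothalamic neurons, at 0.74 ± 2.76 against 0.08 ± 0.82. Each of the 4 was found in part of the class only: Uncx in 26.3% of cells, Lhx9 in 11.8% and Nhlh2 in 9.21%. Dbx1, Lhx1, Fezf1, Lef1 and Vax1 were the other higher genes, at levels of 0.18, 0.26, 0.09, 0.06 and 0.05. In Slc17a6 neurons Nhlh2 was at 5.58, Uncx at 2.86, Fezf1 at 2.61, Lhx1 at 2.50, Lhx5 at 1.41 and Lhx9 at 1.09. Lef1 and Vax1 were also above the class there, at 0.11 and 0.18, and Dbx1 was below it, at 0.11. Apart from Dbx1, high levels of these genes were therefore not particular to the class. Pou3f2, a POU factor of hypothalamic and cortical neurons, was lower, at 0.43 ± 0.89 against 2.10 ± 2.76. Otp and Sim1, factors of some neuroendocrine hypothalamic neurons, were rare. Otp had a value in 5.26% of the class at 0.12 ± 0.53 and Sim1 in 2.63%. In other neurons Otp had a value in 1.50% at 0.11 ± 1.16 and Sim1 in 1.04%. Rax, an early hypothalamic factor, was listed at 0 in the class, but its 2 summed values over both groups were too few to compare.

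Hypothalamic peptide and monoamine genes gave 4 higher and 3 lower of 13 compared, beside 6.43% and 11.7% of all genes, and 0 higher and 1 lower of the 3 with at least 1000 summed values. Nts, which encodes neurotensin, was at 0.24 ± 1.12 against 0.01 ± 0.38, and Slc18a2, the vesicular monoamine transporter, at 0.36 ± 0.73 against 0.14 ± 0.47. Gal and Hdc, for galanin and histidine decarboxylase, were higher at levels under 0.2. Sst and Tac1, for somatostatin and substance P, were lower, at 0.03 and 0.01 against 0.75 and 0.27, and Cartpt was listed at 0. Ghrh, for growth hormone-releasing hormone, had a value in 3.95% of the class (1 in each of 3 cells) and in 1.71% of other neurons, at levels of 0.03 and 0.02. Pomc was at 0.19 in the class and 0.20 in other neurons.

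Factors of the MGE lineage were low in the class although Nkx2-1 was not. Of 19 genes on the MGE list, 14 were at least 2-fold lower and 1 was higher, where 11.7% and 6.43% of all genes were, with a median log2 ratio of -1.66. Of the 15 with at least 1000 summed values 11 were lower and 0 higher. Lhx8, a LIM factor of cholinergic and pallidal neurons, was at 0.34 ± 0.62 against 5.92 ± 5.79, and Lhx6, its counterpart in cortical interneurons, at 0.44 ± 1.16 against 2.64 ± 2.29. Sox6, which acts downstream of Lhx6, was at 0.48 ± 1.10 against 2.40 ± 2.65. Lhx6 and Lhx8 were both at 0 in 44 of the 76 cells. Since the other neurons were mostly Lhx6/Lhx8 neurons, the ratio depends on which neurons the pool held. Isl1/Ebf1 neurons had Lhx8 at 0.44 and Lhx6 at 0.21, and Slc17a6 neurons at 0.44 and 0.07, so in the class Lhx8 was somewhat below and Lhx6 above both groups. Shh, the ligand that patterns the ventral forebrain, was at 0.02 in the class and in 2.63% of its cells, against 0.51 and 32.1% in other neurons. In Isl1/Ebf1 and Slc17a6 neurons Shh was at 0.06 and 0.07, and Sox6 at 0.16 and 0.04. Low Shh and Sox6 were therefore not particular to the class.

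Among 17 factors of the lateral and caudal eminences, 9 were lower and 3 higher, beside 11.7% and 6.43% of all genes. The higher genes were Isl1, Nr2f2 and Foxp4. Isl1, a LIM factor of striatal, cholinergic and hypothalamic neurons, had a value in 56.6% of the class at 3.44 ± 4.78, against 33.2% of other neurons at 1.62 ± 3.49. Nr2f2, an orphan nuclear receptor of the caudal eminence and hypothalamus, was at 3.64 ± 3.81 against 1.19 ± 2.75. Its relative Nr2f1 was within 2-fold, at 5.64 ± 5.61 against 2.94 ± 4.39. The striatal factor Ebf1 had a value in 11.6% of other neurons, fewer than Isl1, so it marked only part of their Isl1 cells. Its level was 0.25 ± 1.20 in the class, 1.32 ± 6.33 in other neurons and 25.1 in the Isl1/Ebf1 neurons, which it helped to define. Bcl11b, Sp9 and Meis2 were lower as well, at 0.97, 0.64 and 0.55 against 4.71, 3.69 and 1.43. Zfhx3, a zinc finger homeodomain factor of maturing neurons, was within 2-fold of other neurons at 6.45 ± 6.14 against 3.82 ± 6.69.

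**Figure D2:**
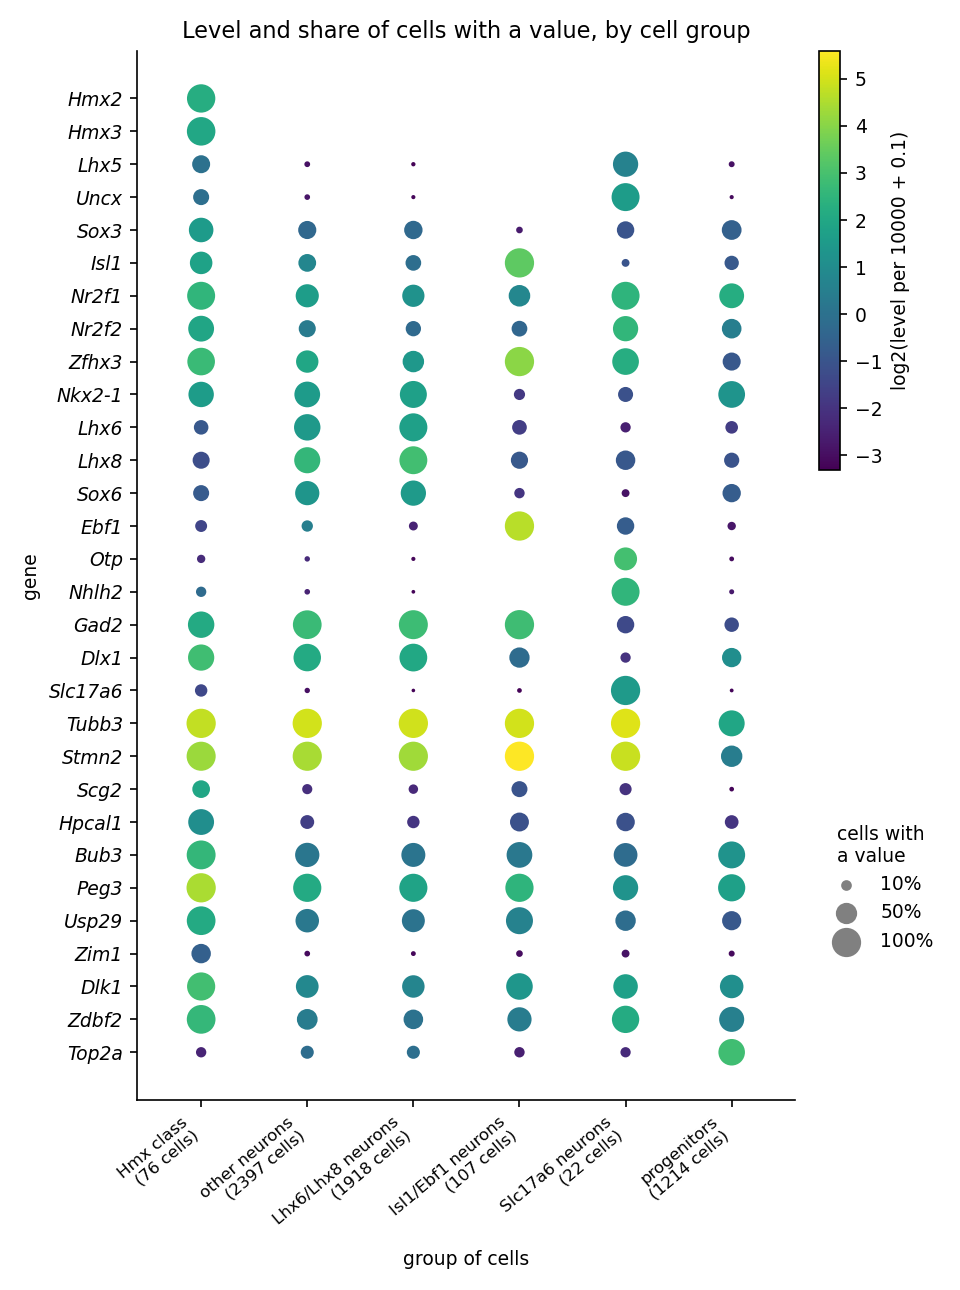
Genes (rows) in 6 groups of cells (columns, with their numbers of cells), where colour is log2 of the level per 10000 plus 0.1 and dot area is the share of cells with a value above 0. The first column shows the class with Nkx2-1 near the size of the second, Lhx6 and Lhx8 small and dark, and Bub3, Peg3, Usp29, Dlk1 and Zdbf2 brighter than in the other 5 columns. Hmx2, Hmx3 and Hes5, which has no row here, were used to define all groups. Tubb3 was used for other neurons and the groups within them. Lhx6, Lhx8, Isl1, Ebf1 and Slc17a6 were used for the groups named after them, so their dots there follow from the definitions.

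Most of the class was GABAergic by its genes. Gad2, which makes GABA, had a value in 61 cells, or 80.3%, at 4.18 ± 3.62 against 96.1% and 6.57 ± 3.92 in other neurons. Gad1, the second GABA-synthesizing enzyme, was the 1 lower gene of 5 on this list, at 0.41 ± 0.74 against 1.20 ± 1.32. Slc32a1, the vesicular GABA transporter, was at 1.16 ± 1.32 against 1.78 ± 1.50. The 6 compared Dlx genes, which drive the GABAergic programme of the ventral forebrain, all lay within 2-fold of other neurons, with Dlx1 at 7.14 ± 5.85 against 4.16 ± 4.11 and Dlx5 at 2.39 ± 2.16 against 3.69 ± 2.40. The genes compared on the GABA and Dlx lists all had at least 1000 summed values, where 1.11% of genes were higher and 2.50% lower. Lying within 2-fold is therefore what most genes with such values did. Slc17a6, the vesicular glutamate transporter of subcortical neurons, had a value in 11 cells (14.5%) at 0.28 ± 0.81, against 1.46% of other neurons and 0.03 ± 0.30. On the list of glutamatergic genes 4 of 6 compared were higher and 2 were listed at 0 in the class, beside 6.43% and 11.7% of all genes, and 0 of the 6 reached 1000 summed values. The higher genes were Slc17a6, Neurod1, Eomes and Nhlh1, all at levels under 0.3.

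The 2 transmitter genes divided the cells almost without overlap. Gad2 alone was found in 60 cells, Slc17a6 alone in 10, both in 1 and neither in 5. The 11 cells with Slc17a6, a division made after the data were seen, held Hmx2 and Hmx3 at levels of 4.53 and 3.77. The other 65 held them at 4.57 and 3.93, so the pooled levels were alike, though cells among the 11 differed (below). In these 11 cells Dlx1 was listed at 0 and Dlx2 and Dlx5 each had a value in 1 cell, while in the other 65 the 3 genes had a value in 60, 56 and 56 cells. Gad2 was at 0.07 in the 11 and 4.90 in the 65. All 11 had Nkx2-1 and all had Bub3. Lhx5 had a value in 7 of the 11 cells and 19 of the 65, at 3.21 against 0.48. Cacna2d1, a calcium channel subunit, had a value in 8 of 11 and 3 of 65.

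Inside the Slc17a6 cells a further division was seen. Lhx9 was found in 5 and Nhlh2 in 5 others, and in the whole class no cell held both, with Lhx9 in 9 cells and Nhlh2 in 7. The 5 Slc17a6 cells with Lhx9 had Hmx2 values of 4 to 17, Hmx3 of 3 to 11 and Bub3 of 6 to 21. The 5 with Nhlh2 lay near the edge of the rule, with Hmx2 of 1 or 2, Hmx3 of 0 to 3 and Bub3 of 1 to 6. Peg3 ran from 20 to 65 in the former and from 12 to 21 in the latter. Eomes had a value in 4 of the 11 and Neurod1 in 5. These are counts of few cells, and a value of 0 can be a missed RNA.

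The class also divided by Nkx2-1. A total of 45 cells had Nkx2-1 of at least 2 and 20 had none. Zfhx3 was at 3.31 in the cells with Nkx2-1 and 12.8 in those without, where all 20 had a value. Scg2, the secretogranin of dense-core vesicles, was at 0.39 against 10.4, with a value in 7 of 45 (15.6%, exact 95% interval 6.49% to 29.5%) and 14 of 20 (70.0%, 45.7% to 88.1%). Zcchc12, a zinc finger coactivator, was at 0.99 against 6.02, Nefl, a neurofilament, at 0.21 against 1.74, and Th, which makes catecholamines, at 0.11 against 0.91. In the other direction Sox3, an SRY-related factor of progenitors and hypothalamus, was at 4.10 in the cells with Nkx2-1 and 0.55 in those without. The ephrin receptor gene Epha3 was at 0.95 against 0, and the Notch ligand gene Dll3 at 0.83 against 0.04. Tubb3 was at 25.3 and 31.8. Hmx2 was at 4.72 and 4.04 and Peg3 at 20.2 and 24.1, so neither followed this division by more than 1.5 times. No cell of the class lacked both Nkx2-1 and Zfhx3: 47 had both, 9 Nkx2-1 alone and 20 Zfhx3 alone.

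Another axis was Lhx5 against Isl1. The 18 cells with Lhx5 of at least 2 had Isl1 at 0.96, with a value in 3 of 18 (16.7%, 3.58% to 41.4%), and the 50 cells without Lhx5 had Isl1 at 4.74, with a value in 36 of 50 (72.0%, 57.5% to 83.8%). Uncx went the same way as Lhx5, at 2.23 in the first and 0.35 in the second, with a value in 12 of 18 and 6 of 50. Over all 76 cells Lhx5 and Uncx were found together in 14, Lhx5 alone in 12, Uncx alone in 6 and neither in 44. Epha3 was at 1.44 against 0.32 and Gad2 at 2.93 against 4.72. Gm27199, an antisense transcript at chr5:120419659-120431767 whose start overlaps the start of Lhx5 by 69 bases, had the same counts with Lhx5 as Uncx had, 14 together, 12, 6 and 44. Whether the counting used strand is not stated, so reads within those 69 bases cannot be assigned to one of them with certainty. Its level was 0.31 ± 0.64 in the class and 0.01 ± 0.18 in other neurons. Only 4 cells had Hmx2 without Hmx3 and 5 Hmx3 without Hmx2, and Bub3 was at 1.22 in the first and 3.67 in the second.

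**Figure D3:**
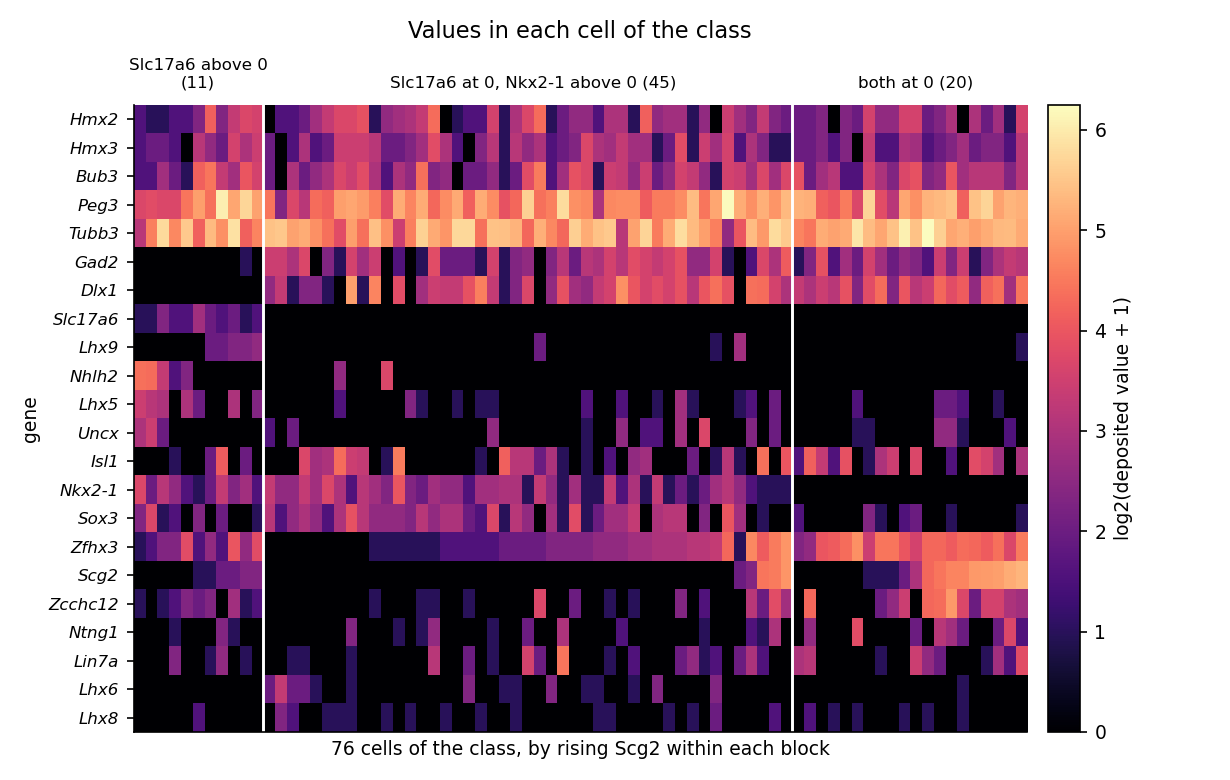
Values of the genes named at the left (rows) in each of the 76 cells of the class (columns), coloured by log2 of the deposited value plus 1. White lines divide the 11 cells with Slc17a6, the 45 cells without Slc17a6 but with any Nkx2-1 and the 20 cells with neither, and cells are ordered by Scg2 and then Zfhx3 within each block, so the rise of these 2 genes along a block comes from the ordering. Dlx1 is black in the first block, Lhx9 and Nhlh2 fill different columns of it, and Sox3 is bright in the second block and mostly dark in the third.

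The genes with the highest ratios outside the lists were ranked with 0.1 added to each level, among genes with a value in at least 20% of the class. Scg2 stood first on that scale, at 3.74 ± 7.91 against 0.13 ± 0.55 (plain log2 ratio 4.86), carried by 32.9% of the cells with values of up to 38. Hpcal1, a neuronal calcium sensor, was more even, with a value in 76.3% of the class at 1.97 ± 1.95 against 18.8% and 0.21 ± 0.53. Lin7a, a synaptic scaffold protein, was at 1.50 ± 2.75 against 0.11 ± 0.47, and Ntng1, the axonal adhesion protein netrin-G1, at 1.01 ± 2.19 against 0.06 ± 0.31. Insm2, a zinc finger factor of neuroendocrine cells, had the higher plain log2 ratio of 7.13, at a low level of 0.43 ± 0.98 and with a value in 19 of 76 members and 0.33% of other neurons. Cnr1, the cannabinoid receptor, stood at 1.48 ± 1.75 against 0.27 ± 0.75 and Irs4, an insulin receptor substrate of the hypothalamus, at 0.46 ± 0.85 against 0.03 ± 0.24. Alcam, Rgs10, Zcchc12, Thsd4, Peg3, Zim1, Zdbf2 and Dlk1 made up the rest of the 15. At the other end stood Runx1t1, a corepressor, at 0.58 ± 0.98 against 3.96 ± 3.63, Crabp2, a retinoic acid binding protein, at 1.07 ± 1.51 against 4.90 ± 4.49, and Pou3f1, at 0.38 ± 0.85 against 2.96 ± 4.75. Sox3, named after its value was seen, was at 2.83 ± 3.01 against 0.68 ± 1.32, with a value in 68.4% of the class.

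Bub3 was the gene closest to Hmx2 and Hmx3 with a high ratio. It had a value in 74 of 76 cells (97.4%), up to 22 and with a median of 6, and in 66.7% of other neurons, where the median was 1. Its level was 5.88 ± 3.85 in the class, 1.03 ± 1.14 in other neurons (5.69-fold, log2 ratio 2.51) and 2.31 in progenitors. In Lhx6/Lhx8, Isl1/Ebf1 and Slc17a6 neurons it was at 0.98, 1.08 and 0.76. The other spindle checkpoint genes of the G2 and M list, Bub1 and Bub1b, were low in the class, at 0.03 and 0.01 against 0.10 and 0.08, so Bub3 did not go with them. Within 1000000 bases of Hmx2 the annotation has 48 genes, of which 18 have a row and 10 besides Hmx2 and Hmx3 could be compared. Besides Bub3, Chst15 was above 2-fold at 0.06 against 0.03, and Gpr26 was listed at 0 in the class. The log2 ratios of the compared genes other than Bub3 that had a value in the class lay between -0.14 and 1.17. Acadsb, upstream of Hmx3, was at 0.45 against 0.31.

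**Figure D4:**
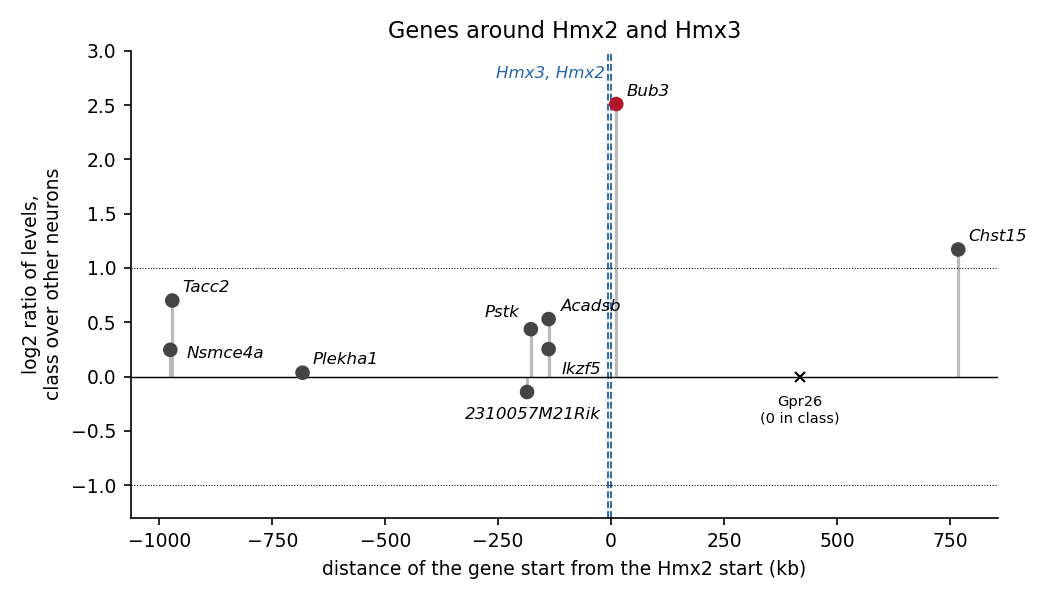
Log2 ratio of levels, class over other neurons (y axis), for the genes compared within 1000000 bases of Hmx2, by the distance of their start from the start of Hmx2 in kilobases (x axis). Dashed vertical lines mark Hmx3 and Hmx2, which are not plotted because other neurons were chosen without them, dotted lines mark 2-fold and the cross marks Gpr26, listed at 0 in the class. Bub3, in red at 2.51, stands above its neighbours, which lie between -0.14 and 1.17.

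The level of Bub3 went with that of Hmx2 and Hmx3. It was 1.03 ± 1.14 in neurons without either gene, 1.85 ± 2.0 in the 26 cells with a sum of 1 and Hes5 under 3, 3.09 ± 2.63 in the 17 members with a sum of 2 to 4, 4.59 ± 2.61 in the 26 with 5 to 9 and 8.27 ± 3.82 in the 33 with 10 or more. The groups overlapped: values per cell ran from 0 to 12, from 1 to 14 and from 3 to 22 in the last 3. All 3 cells that Hes5 kept out of the class had a Bub3 value, from 4 to 6. Peg3 also stood higher with the sum at first, at 16.2, 23.2 and 24.1 in the 3 ranges, and Acadsb did not, at 0.43, 0.50 and 0.43. Across the 76 cells, Pearson's r on log2(value + 1) was 0.56 for Hmx2 and Bub3, 0.45 for Hmx3 and Bub3, 0.44 for Hmx2 and Hmx3 and 0.05 for Hmx2 and Acadsb. These are descriptions over cells of 1 library that share its depth correction. The rule chose the 76 cells by the sum of Hmx2 and Hmx3, so the r of these 2 genes is shaped by that cut and is no yardstick for the others. Hmx2 and Bub3 lie on the same strand 2207 bases apart, and whether some reads assigned to Bub3 came from transcripts running past the end of Hmx2 was not tested, since positions of reads were not used here.

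**Figure D5:**
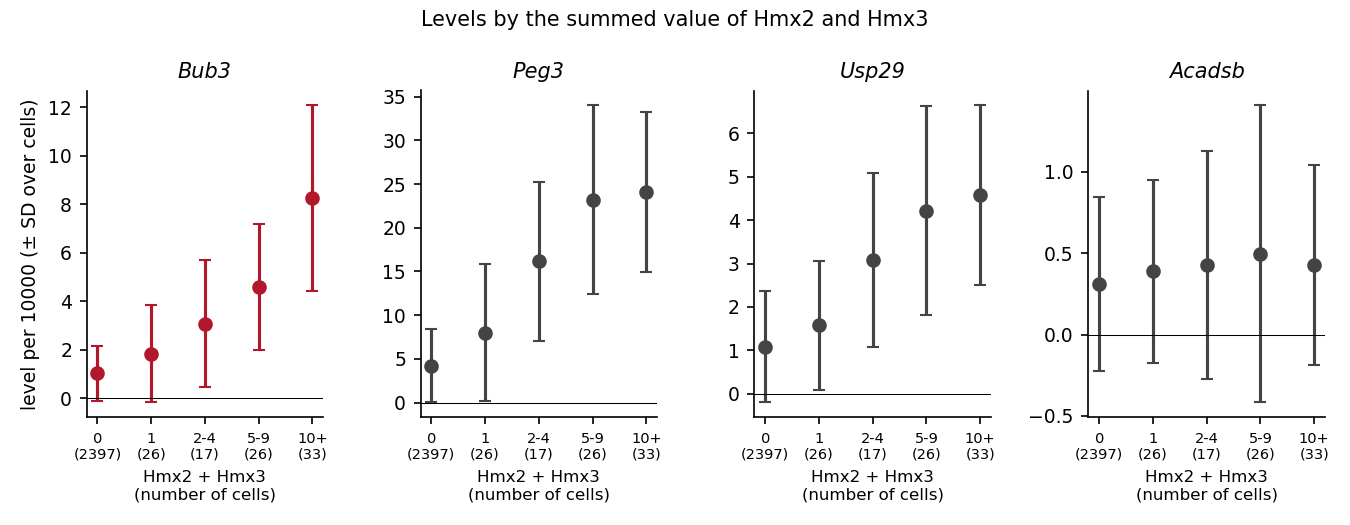
Levels per 10000 of Bub3, Peg3, Usp29 and Acadsb (y axes, which differ) in cells grouped by the summed value of Hmx2 and Hmx3 (x axis, with the number of cells), with bars of 1 SD over cells. The first point is the other neurons, the second the cells with a sum of 1 and Hes5 under 3, and the last 3 are the class. Bub3 goes from 1.03 to 8.27, Peg3 and Usp29 differ little between the last 2 points, and Acadsb stays between 0.31 and 0.50.

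Several imprinted genes, which are transcribed mainly from 1 parental copy, stood among the genes with the highest ratios of the class to other neurons. A list of imprinted genes was added after this had been seen, so it lends no independent weight. Of 40 compared, 11 were at least 2-fold higher and 2 lower, with a median log2 ratio of 0.40, where 6.43% and 11.7% of all genes were. Among the 27 with at least 1000 summed values 8 were higher and 0 lower, where the background was 1.11% and 2.50%. The other 27 of the 40 lay within 2-fold, so the list did not move as a whole.

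Peg3, a zinc finger protein of paternal origin, had a value in every member, with a median of 26 and a highest of 73, at 22.0 ± 10.1 against 4.23 ± 4.18 in other neurons. Its neighbours in the same imprinted domain were high with it. Usp29, a ubiquitin protease that starts next to Peg3 on the opposite strand, was at 4.13 ± 2.23 against 1.08 ± 1.28, and Zim1, a zinc finger gene of maternal origin, at 0.55 ± 0.84 against 0.02 ± 0.14. The 3 genes lie between chr7:6671269 and chr7:6967219, on the same chromosome as Hmx2 and Hmx3 but far from them. Peg3 was at 3.54 in Lhx6/Lhx8 neurons, 5.52 in Isl1/Ebf1 neurons, 2.28 in Slc17a6 neurons and 3.18 in progenitors. Within the class it was 21.1 in the 11 cells with Slc17a6 and 22.2 in the other 65, so it was high in both. Values per cell ran from 12 to 65 in the 11. Pearson's r of Peg3 and Usp29 over the 76 cells was 0.47.

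At other imprinted domains the picture was uneven. Dlk1, a Delta-like growth regulator, was at 7.28 ± 7.52 against 1.68 ± 2.59, while Meg3 and Rian, noncoding RNAs of the same domain, were within 2-fold at 30.4 and 1.78 against 19.1 and 1.19. Rtl1 and Mirg of that domain were higher at low levels, 0.16 and 0.31 against 0.02 and 0.15. Zdbf2 was at 6.05 ± 4.07 against 1.22 ± 2.11 and Peg10 at 3.81 ± 2.80 against 1.45 ± 2.63. In the Prader-Willi domain Ndn and Magel2 were higher, at 20.8 and 1.25 against 9.92 and 0.45, and Snrpn was close, at 3.85 against 3.44. Cdkn1c, a maternally expressed inhibitor of the cell cycle, was at 5.43 against 7.29.

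Of 34 compared genes of axon guidance and migration 7 were higher and 11 lower, beside 6.43% and 11.7% of all genes, and 2 and 3 of the 11 with at least 1000 summed values. Cdh13, a cadherin without a cytoplasmic tail, was at 0.62 ± 1.02 against 0.05 ± 0.29, Efna5, an ephrin ligand, at 1.09 ± 1.19 against 0.37 ± 0.70, and Nrp1, a semaphorin receptor, at 1.42 ± 1.75 against 0.67 ± 1.28. Epha5, a receptor for ephrin-A ligands such as that encoded by Efna5, was lower at 0.55 ± 1.68 against 3.46 ± 5.67, as were Plxna2 at 0.76 ± 0.89 against 2.65 ± 2.49 and the Slit receptor gene Robo2 at 0.24 ± 0.50 against 1.07 ± 1.61. Receptor and channel genes gave 6 higher and 6 lower of 23, beside the same shares of all genes, and 0 and 1 of the 4 with at least 1000 summed values, with a median log2 ratio of 0.07. Of the higher ones Gabra2, a subunit of the GABA receptor, was at 0.36 and Kcnd2, a potassium channel, at 0.21. Of 3 compared receptor genes of the leptin, insulin and growth factor axes, 1 was lower, beside 11.7% of all genes. It was Lepr, at 0.01 against 0.03, and a level this low in the class rests on very few values.

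The cells kept together when all 4001 were clustered without Hmx2, Hmx3 and Hes5. Of 16 clusters, 1 of 92 cells held 51 of the 76 members (67.1%), 1 of 113 cells held 10, and 6 more held 1 to 6 each, so 25 members lay outside the main one. Among the nearest cells of a member, 62.0% were members on average, against 0.715% for other cells. The main cluster was led by Otp, Hmx2, Nhlh2, Scg2, Hmx3, Uncx, Nrn1 and Sim1, with the levels of 2 kinds of cell in it. Its 41 cells outside the class had Otp at 6.14, Sim1 at 2.28 and Nhlh2 at 4.80, and its 51 members had 0.03, 0.08 and 0.52. Bub3 was at 6.71 in those members and 1.32 in the 41 others, Peg3 at 24.7 and 4.59, and Dlx1 at 7.70 and 1.52. The 41 cells had Hmx3 at 0 and a value of Nkx2-1 in 13. Those of the 41 with an Hmx2 value, of 1 each, had Bub3 at 6 and 0, Peg3 at 47 and 3 and Scg2 at 39 and 0. Members outside the main cluster had lower levels of Scg2, 0.10 against 5.46, and of Lin7a, 0.16 against 2.13, and higher levels of Lhx6, 0.88 against 0.23. Their Bub3 and Peg3 levels were 4.14 and 16.4, above the 1.03 and 4.23 of other neurons.

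Set beside the 3 narrower groups of neurons, the class shared single genes with each. With the Isl1/Ebf1 neurons it shared Isl1, which was at 10.4 there, but that group had Nkx2-1 at 0.18, Dlx1 at 0.77 and Sox3 at 0.06, where the class had 2.91, 7.14 and 2.83. With the Slc17a6 neurons it shared Lhx5, at 1.41 there, Uncx at 2.86, Nr2f2 at 5.73 and Zdbf2 at 4.31, while Otp was at 7.58, Gad2 at 0.29 and Bub3 at 0.76 in them. With the Lhx6/Lhx8 neurons it shared Nkx2-1, at 3.16, and Dlx1, at 3.95, while Isl1 was at 0.82 there and Nr2f2 at 0.72. The Slc17a6 group rests on 22 cells.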

How the data were processed

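The series holds 1 RNA library and 1 sample barcode library of the same pool, labelled with strain CD-1, the MGE and E11.5. The tools named were Cell Ranger 3.0.2 and bcl2fastq, with the build GRCm38, per the submitters' processing notes. The authors deposited 1 matrix of 18088 genes by 4001 cells. Its unit was treated as a score, since the deposited whole numbers (0 to 1245) have near-equal totals per cell and some cells skip the value 1 (200 cells, 5.00%, and 3 of the 76 members). Depth correction of this kind hides raw depth, so levels carry no interval. The deposited table was used as it stands, with no filter on cells.

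Levels, shares with exact Clopper-Pearson 95% intervals, and ratios were computed in Python 3.11.15 with numpy 2.4.6, pandas 2.3.3 and scipy 1.17.1, and the script was tested on simulated data. Clustering used scanpy 1.11.5 and igraph 0.11.9 (2000 variable genes less the 3 of the rule, 30 components, 15 neighbours, Leiden resolution 1). Scrublet at an expected rate of 5% called 6 cells (0.15%), 0 of them members. This is far below that rate, so the calls were not relied on and doublets may remain in the data. Gene positions are from GENCODE (18071 identifiers found) and upstream sequences from RefSeq. Named genes are members of gene lists, the genes beside Hmx2 and Hmx3, and the top and bottom 15 genes ranked by log2 ratio with 0.1 added to each level (a value in at least 20% of the higher group, at least 30 summed values, no ribosomal protein genes or unnamed models). The members and lists were chosen with earlier results of these data known. The design allowed for UMI counts; with scores no count test was used. Some genes of the lists are counted in them but not reported here by name.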

Additional observations from a re-analysis of the deposited data

How the results depend on the processing

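With other settings for the rule the class held 54 to 102 cells, and 51 lay in its main cluster. The share of compared genes at least 2-fold higher than in other neurons was 6.43% (874 of 13593 genes). It became 3.70% with at least 100 summed values per gene (404 of 10933), 10.6% with no minimum (1917 of 18010), 0.103% as a difference of mean log2(value per 10000 + 1) (14 genes) and 1.11% with at least 1000 summed values (51 of 4602). The share at least 2-fold lower was 11.7% (1593 genes) and became 7.31% of 10933 genes, 25.2% (4545 genes), 0.0809% (11 genes) and 2.50% (115 genes) under the same 4 settings, 6.94% with an Hmx2 and Hmx3 sum of at least 1 (947 genes) and 21.2% against all other cells of the pool (3237 genes). Of the named genes past 2-fold, 157 of 161 kept their direction against all other cells, where 131 of 322 named log2 ratios moved by over 1.5-fold. There the log2 ratios of Vax1, Nkx6-2, Lhx2 and Ntn1 reversed to -0.57, -1.17, -0.86 and -1.28. With a sum of at least 1, 159 of 161 kept it, 67 of 322 moved by over 1.5-fold, and Mcm5 and Hbb-bt turned to 0.026 and 0.13. Requiring both Hmx2 and Hmx3 turned Hdc to -0.43, and limiting the class to the main cluster turned Ntn1 to -0.43. The cause of these changes was not tested. The median of the G2 and M list (-2.41) became -0.80 with a sum of at least 1, and that of the hypothalamic factors (1.17) became 0.02 with at least 1000 summed values. Leaving out the difference of mean log2 values, the log2 ratio of Bub3 lay, under the settings run, between 1.95 and 2.70, of Peg3 between 2.12 and 2.55, of Lhx8 between -4.78 and -2.01 and of Nkx2-1 between -0.26 and 0.21. The settings with at least 1000 summed values, with the main cluster only and without members that had Lhx6 and Lhx8 summing to at least 3 were chosen after seeing the data. Library replicates could not be left out because the pool is 1 library. No paired analysis was possible because there is 1 RNA library and no test.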
